A study of Mus musculus with 2 samples.

Results

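The insulin receptor, PI3K, mTOR, AMPK and FoxO genes are 38 genes that encode the receptors, kinases, phosphatases and transcription factors through which a cell answers insulin, insulin-like growth factors and its own energy supply. They were taken from a fixed list of gene symbols, as every probe whose transcript identifier belonged to a listed gene. All 38 were found, on 59 probes and 73 spots, among 21360 named genes on the arrays. LSK cells are bone marrow cells without lineage markers that carry Sca-1 and c-kit, a mixture of blood stem cells and early progenitors. One array held RNA from LSK cells of nondiabetic C57BL/6J mice and the other RNA from LSK cells of C57BL/6J mice made diabetic with streptozotocin (STZ), a toxin of pancreatic beta cells. Each RNA came from 3 mice, 8.3 ng of it was amplified, and it was labelled with Cy3. The labels call the mice of both groups female, whereas the study describes male STZ-treated mice. The age of the mice and the time between STZ and the cell sort are not given in the sources used here, and STZ also damages DNA, so an effect of the agent and one of high glucose cannot be told apart.

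In this pathway, insulin or IGF-1 binds its receptor, the adaptors IRS1 and IRS2 are phosphorylated, and PI3K makes the lipid that recruits PDK1 and AKT to the membrane. AKT restrains the TSC complex, which releases Rheb to activate mTOR complex 1 and its substrates, the S6 kinases and the 4E-BPs, and AKT keeps FoxO factors out of the nucleus. AMPK, a heterotrimer of an alpha, a beta and a gamma subunit that LKB1 activates when energy is low, acts against mTOR complex 1. In blood stem cells, FoxO factors, TSC1 and LKB1 are known for keeping the cells quiescent and able to renew themselves.

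With 1 array per condition, the difference between the arrays and the difference between the conditions cannot be told apart, and no test was made. Levels are given as the intensity the scanner software computed after background correction. Ratios are diabetic over nondiabetic on the log2 scale, after each array was scaled to the 75th percentile of its non-control spots (intensities of 168 and 182). A probe that the software did not mark as well above background on 1 array has a bound, and one marked on neither has no ratio. Less RNA of a gene per cell and fewer cells that express it cannot be told apart in such pooled cells. Of 11 genes of the stem cell gate, 10, among them Kit and Ly6a (Sca-1), were well above background on both arrays, and Slamf1 on the diabetic array alone. Of markers listed for other cell types, Ms4a1, Cdh5 and Col1a1 were well above background on neither array. In contrast, 8 of 8 granulocyte and monocyte genes were well above it on both. The summed intensities of these 8 were 43389 and 42439, mostly from Itgam, while their log2 ratios went from -1.48 (S100a8) to 0.50 (Elane). The summed intensity of 6 erythroid genes came to 2387 on the nondiabetic and 5531 on the diabetic array, mostly from Hba-a1, and that of 5 stroma and endothelium genes was 193 and 965, mostly from Pecam1. That of 4 megakaryocyte genes was 1150 and 1567, and that of 5 B cell genes 209 and 294. For 6 T and NK cell genes it was 4547 and 3825, mostly from Nkg7, and for 4 beta cell genes 450 and 372. Their part in the values below was not tested.

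Most of the pathway differed little between the arrays, and the genes past 2-fold were all lower in diabetic LSK cells. These were Pik3r2, a PI3K regulatory subunit, Prkab1 and Prkab2, the beta subunits of AMPK, and, by the brighter of its probes, Foxo1. Of the 38 genes, 35 were well above background on both arrays, Irs1 and Foxo4 had a bound, and Pik3r5 had no ratio. Among the 37 with a ratio or bound, 4 were at least 2-fold lower (10.8%), against 10.1% of the 15192 named genes with a ratio or bound. None was at least 2-fold higher (0 of 37), against 11% of those genes. The share that was lower is therefore near that of all genes. The median log2 ratio was -0.13 over the 37 genes and 0.02 over all genes. Probes were split by intensity into 3 classes of equal size, bright, middle and dim. Of the 37 genes, 14 were bright, and all 14 were between -0.81 and 0.51. Over all named genes, 3.33% of the bright, 11.8% of the middle and 15.3% of the dim ones were at least 2-fold lower. Prkab1 and Foxo1 were in the middle class and Pik3r2 and Prkab2 in the dim one.

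**Figure D1:**
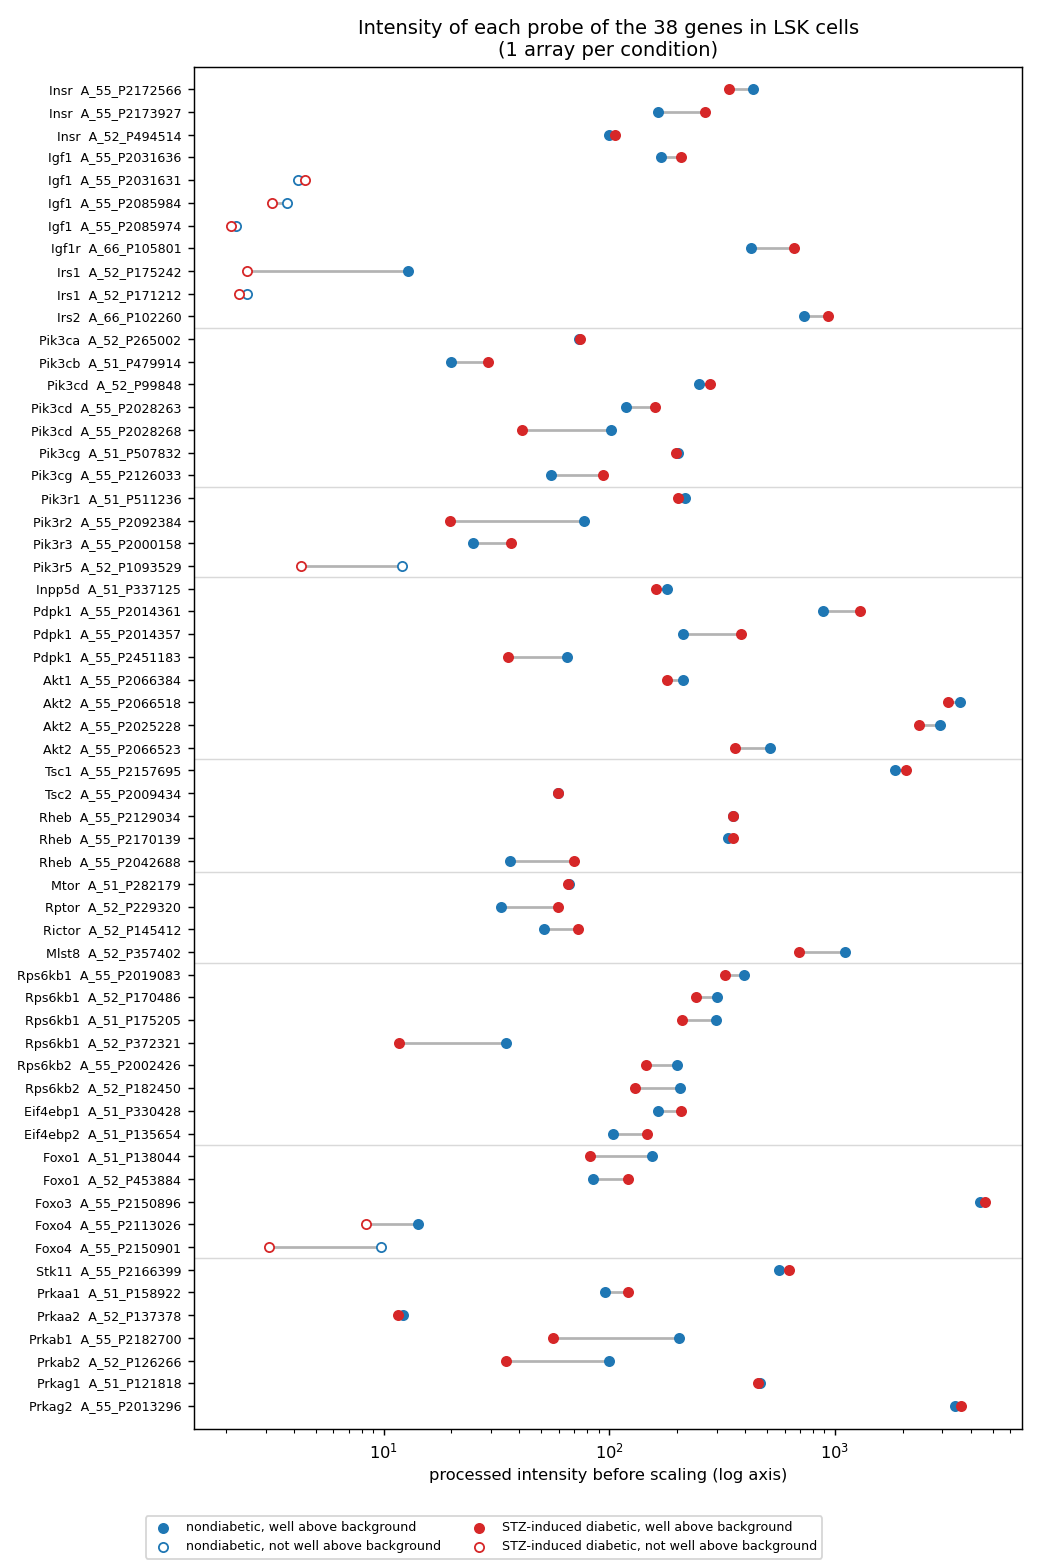
Processed intensity before scaling (log axis) of each of the 59 probes on the nondiabetic array (blue) and the diabetic array (red), with open circles where a probe was not well above background and grey lines between role groups. The widest gaps with both circles filled belong to Pik3r2, Prkab1, Rps6kb1 (probe A_52_P372321) and Prkab2, all lower on the diabetic array.

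The bases in front of these 4 genes are shown because their values carry the lower end of the list. They are from RefSeq (GRCm38.p6), 5′ to 3′ on the strand of the gene, and end before the annotated gene, so that Pik3r2 and Foxo1 have 250 bases, Prkab2 has 249 and Prkab1 has 175. Capitals mark matches, on either strand, to the FoxO core GTAAACA, the E-box CACGTG, the CCAAT box, the GC box GGGCGG or the cyclic AMP element TGACGTCA.
Pik3r2 (chr8:70776713-70776962, - strand): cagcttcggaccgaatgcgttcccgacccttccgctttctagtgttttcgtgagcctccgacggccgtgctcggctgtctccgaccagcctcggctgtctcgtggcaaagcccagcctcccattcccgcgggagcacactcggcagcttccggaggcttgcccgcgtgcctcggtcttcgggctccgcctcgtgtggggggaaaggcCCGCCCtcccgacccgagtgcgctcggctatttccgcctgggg
Prkab1 (chr5:116024504-116024678, - strand): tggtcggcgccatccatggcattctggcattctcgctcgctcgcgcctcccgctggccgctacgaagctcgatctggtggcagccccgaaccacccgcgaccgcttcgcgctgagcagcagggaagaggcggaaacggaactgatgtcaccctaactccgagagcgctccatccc
Prkab2 (chr3:97657962-97658210, + strand): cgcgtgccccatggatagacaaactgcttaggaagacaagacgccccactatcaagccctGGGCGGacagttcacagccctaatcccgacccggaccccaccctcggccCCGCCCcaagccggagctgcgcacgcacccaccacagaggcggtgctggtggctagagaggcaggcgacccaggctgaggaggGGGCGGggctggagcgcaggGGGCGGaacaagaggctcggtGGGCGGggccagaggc
Foxo1 (chr3:52268087-52268336, + strand): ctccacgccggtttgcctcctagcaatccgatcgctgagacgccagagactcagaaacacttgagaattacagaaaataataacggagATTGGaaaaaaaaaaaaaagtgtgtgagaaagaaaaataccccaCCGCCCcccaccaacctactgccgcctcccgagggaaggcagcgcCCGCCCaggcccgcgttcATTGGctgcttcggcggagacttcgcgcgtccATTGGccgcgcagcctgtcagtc
The AMPK beta subunit genes differed in these matches, with 5 GC boxes in front of Prkab2 and 0 in front of Prkab1. Pik3r2 had 1 GC box, and Foxo1 had 2 GC boxes and 3 CCAAT boxes, with no overlap between matches. No FoxO core, E-box or cyclic AMP element was found in these 4 windows, which says only that these letters are not in them. Of the 38 genes, 34 had 47 start sites in the table, and 28 of these 47 windows of 250 bases (59.6%) held a GC box, against 32.7% of 32851 windows of all genes. The FoxO core was in 4.26% of the 47 and 3.17% of all, the E-box in 6.38% and 6.02%, the CCAAT box in 29.8% and 33.8%, and the cyclic AMP element in 0 of 47 and 1.55%. The median G+C content was 59.6% over the 47 and 52.4% over all windows.

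Insr, Igf1, Igf1r and Irs2 were well above background on both arrays and under 2-fold, and Irs1 on the nondiabetic array alone. Insr, the insulin receptor, had 3 probes that differed among themselves. Its brightest probe (A_55_P2172566) read 434 in nondiabetic cells and 338 in diabetic cells, a log2 ratio of -0.48, while the others gave 0.58 (from 164 to 267) and -0.02 (from 99.4 to 106). No single direction can be given for the insulin receptor from these probes. Igf1r, the receptor of IGF-1, read 426 on the nondiabetic and 656 on the diabetic array, a log2 ratio of 0.51 on its only probe. Irs2, the adaptor known for liver and islet insulin signalling, read 730 and 933, in the same order, a log2 ratio of 0.24. The other adaptor, Irs1, was dim. One of its probes read 12.9 in nondiabetic cells and 2.49, too dim to count as detected, in diabetic cells, which makes it at least 1.39-fold lower, and its second probe was well above background on neither array. Igf1, the growth factor itself, was read by 1 of its 4 probes, at 169 and 208, a log2 ratio of 0.18 on which its 2 spots agreed (0.14 and 0.22). The other 3 probes of Igf1 lay between 2.12 and 4.47 on the arrays, not well above background.

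The catalytic subunits of PI3K had log2 ratios from -0.15 to 0.42 on their brightest probes. Pik3ca, the alpha subunit found in most tissues, had intensities of 73.2 and 74.0, a log2 ratio of -0.10. Pik3cb, the beta subunit, had 20.0 and 28.9, a log2 ratio of 0.42 at a low signal. The delta and gamma subunits are those typical of blood cells. The brightest probe of Pik3cd (delta) gave 250 and 279, a log2 ratio of 0.04, and a second probe 0.31. The third probe of Pik3cd (A_55_P2028268) stood apart from these, at 101.5 and 41.1, which is 2.68-fold lower, although it carries the same transcript identifier as the second. Pik3cg (gamma) had log2 ratios of -0.15 and 0.64 on its probes. No probe of the alpha, beta or gamma subunit passed 2-fold.

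Regulatory subunits hold the catalytic subunits stable and dock them to phosphorylated receptors and adaptors. Pik3r2, which encodes the beta isoform, read 77.5 ± 8.12 on the nondiabetic and 19.6 ± 3.10 on the diabetic array (± is the software's own error estimate for the spot). Its log2 ratio of -2.10 ± 0.27, or 4.28-fold lower, was the lowest of the 35 genes well above background on both arrays, and it rests on a single spot on each array. Under the normexp background correction it was -0.78, short of 2-fold. Pik3r1, the alpha isoform, had 216 and 202, a log2 ratio of -0.21. Pik3r3, the gamma isoform, had 24.8 and 36.7, a log2 ratio of 0.45. The regulatory subunits thus went from -2.10 to 0.45, and Pik3r2 was the one of the 3 measured that passed 2-fold. Pik3r5, a regulator of the gamma catalytic subunit, was well above background on neither array (12.1 and 4.32).

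Downstream of the lipid, no probe passed 2-fold. Inpp5d encodes SHIP1, a phosphatase of blood cells that removes the PI3K product, and had intensities of 180 and 161, a log2 ratio of -0.27. Pdpk1, the kinase PDK1 that phosphorylates AKT, had 888 and 1293 on its brightest probe, a log2 ratio of 0.42, and 0.74 on the next. Its dimmest probe (A_55_P2451183) gave the opposite, 65.0 and 35.6, a log2 ratio of -0.99. AKT was lower on all 4 of its probes. Akt1 had 213 and 181, a log2 ratio of -0.35, with -0.27 and -0.43 on its 2 spots. Akt2, the isoform known for glucose uptake, had 3584 and 3177 on its brightest probe and log2 ratios of -0.29, -0.44 and -0.63 on its 3 probes, none past 2-fold. Among genes with 3 measured probes, 12.5% had all of them lower.

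Among the listed genes, the switch between AKT and mTOR stood near 0 by the brightest probe of each gene. Tsc1, which encodes hamartin, had 1849 and 2059, a log2 ratio of 0.04, and Tsc2, its partner tuberin, had 59.5 and 59.2, a log2 ratio of -0.13. The brighter probes of Rheb, the small GTPase that the TSC complex turns off, gave -0.12 and -0.05. The third and dimmest probe of Rheb, at 36.3 and 69.7, gave 0.83.

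The subunits of the mTOR complexes had ratios on both sides of 0. Mtor, the kinase, had 66.3 and 65.5, a log2 ratio of -0.14. Rptor, the scaffold that defines complex 1, had 33.0 and 59.3, a log2 ratio of 0.73, the highest of the 35 genes well above background on both arrays. Rictor, which defines complex 2, had 51.5 and 72.6, a log2 ratio of 0.38. Mlst8, which both complexes share, was brighter, at 1114 and 691, and had a log2 ratio of -0.81, or 1.75-fold lower. All 4 have 1 probe each, and none passed 2-fold.

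Among the substrates of mTOR complex 1, both S6 kinase genes, whose products drive ribosomal protein S6 and translation, were lower on all 6 of their probes. For Rps6kb1 (S6K1) the brightest probe gave 394 and 324, a log2 ratio of -0.40, and the others -0.43, -0.63 and -1.69. The last of these (A_52_P372321) had intensities of 34.9 and 11.7, which is 3.22-fold lower and close to the background on the diabetic array. Rps6kb2 (S6K2) had 200 and 146 on its brightest probe, a log2 ratio of -0.57, and -0.79 on the other. Of all genes with 4 measured probes, 6 of 65 had every probe lower (9.23%), and of those with 2 measured probes 25.1% did. The 4E-BPs are translation repressors that mTOR complex 1 inactivates. Eif4ebp1 read 164 and 209, a log2 ratio of 0.23, and Eif4ebp2 read 104 and 147, a log2 ratio of 0.38, while Eif4ebp3, from the list of partners, read 706 and 374, a log2 ratio of -1.03. Neither the S6 kinases by brightest probe nor Eif4ebp1 and Eif4ebp2 passed 2-fold.

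The FoxO genes had a level value, a pair of opposite values and a bound. Foxo3, the FoxO gene known for maintaining blood stem cells, had 4380 and 4620, a log2 ratio of -0.04. Foxo1 had opposite values on its 2 probes. The brighter one (A_51_P138044) had 154.7 ± 15.7 in nondiabetic and 81.8 ± 8.56 in diabetic cells, a log2 ratio of -1.04 ± 0.21, just past 2-fold, while the other (A_52_P453884) had 84.4 and 121, a log2 ratio of 0.41. Under normexp the brighter probe gave -0.58. Foxo1 therefore has no settled direction here. Foxo4 was dim. Its brighter probe read 14.2 in nondiabetic cells and 8.38, again too dim to count as detected, in diabetic cells, which makes it at least 1.53-fold lower, and its other probe was well above background on neither array.

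In AMPK, the beta subunits were lower in diabetic LSK cells, and the alpha and gamma subunits were not past 2-fold. Beta subunits hold the heterotrimer together and bind glycogen. Prkab1 (beta 1) read 203 ± 20.4 on the nondiabetic and 56.4 ± 6.02 on the diabetic array, a log2 ratio of -1.97 ± 0.21, or 3.90-fold lower. Prkab2 (beta 2) had 99.7 ± 10.2 and 35.0 ± 4.08, a log2 ratio of -1.63 ± 0.22, or 3.09-fold lower. Both values rest on 1 probe and 1 spot on each array, and under normexp Prkab1 was -1.26 and Prkab2 -0.81, short of 2-fold. The catalytic subunits were Prkaa1 (alpha 1), with 96.0 and 120.8 and a log2 ratio of 0.21, and Prkaa2 (alpha 2), which was barely above background at 12.3 and 11.6 (-0.19). Of the gamma subunits, which sense AMP, Prkag2 had 3395 and 3623, a log2 ratio of -0.02. Stk11, which encodes LKB1, had 564 and 624, a log2 ratio of 0.03.

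Prkag1 (gamma 1) was printed on 10 spots and shows how closely the ratio repeats between spots at a bright signal. It read 468 on the nondiabetic and 458 on the diabetic array, and its log2 ratio was -0.15 ± 0.07 (SD over 10 spots), from -0.26 to -0.06. The spread between spots over all probes printed at least 5 times had a median SD of 0.07 in the bright class (70 probes), 0.13 in the middle class (79) and 0.25 in the dim class (88). Pik3r2, Prkab1, Prkab2 and the brighter probe of Foxo1 were picked out by their ratios past 2-fold. That they lie farther from 0 than this spread was therefore fixed in advance and is no support for them. The spread covers repeat spots on both arrays, and neither mice nor cell sorts nor amplifications.

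**Figure D2:**
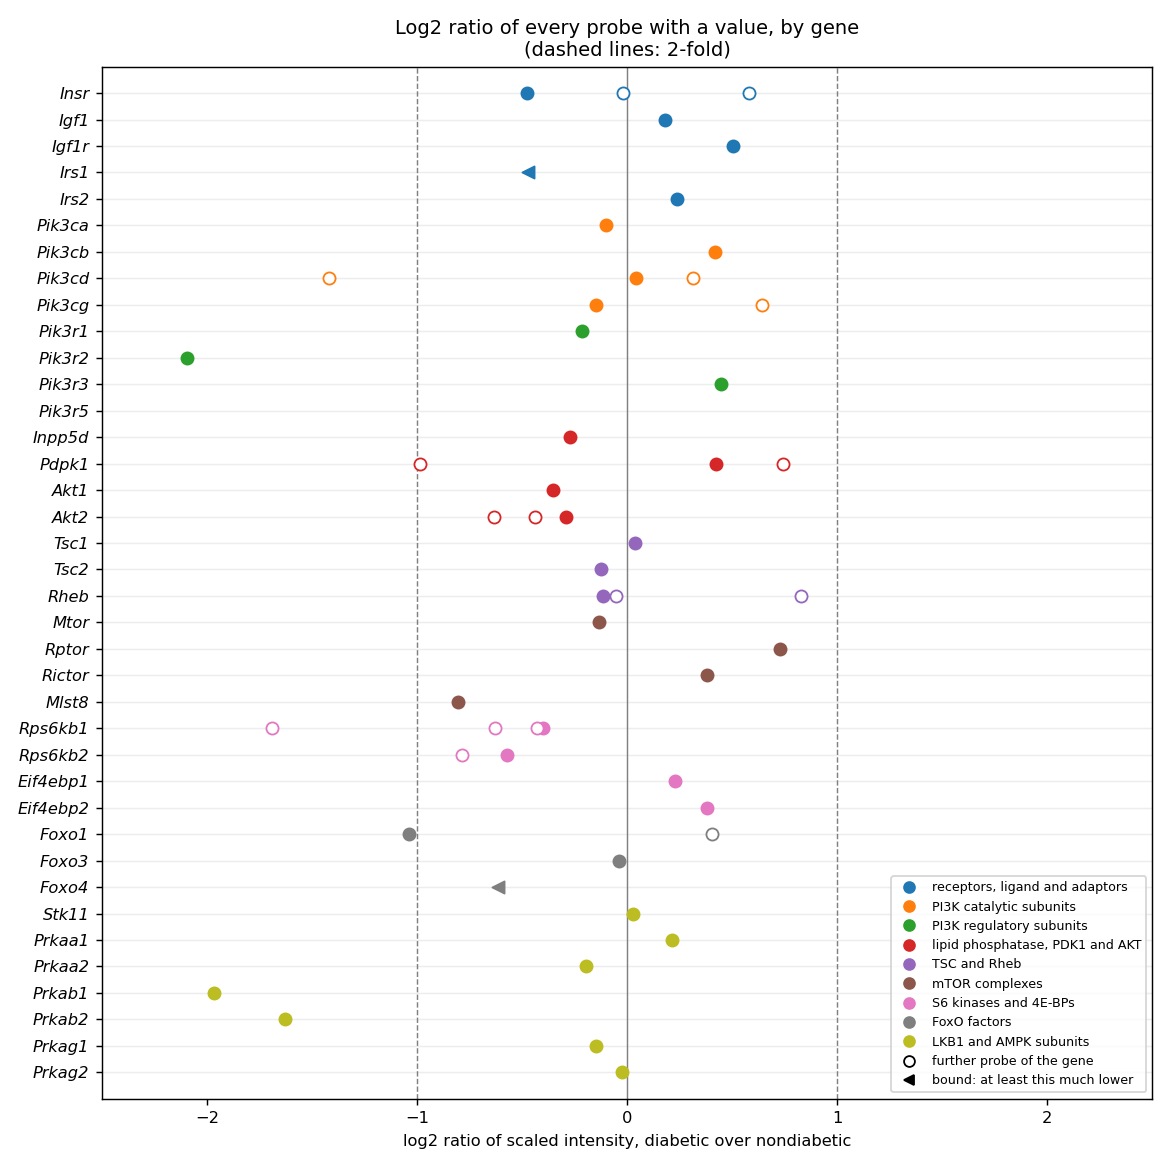
Log2 ratio (diabetic over nondiabetic, x axis) of each probe that has a value, by gene, with filled symbols for the brightest probe of the gene, open circles for its further probes and triangles for bounds. Pik3r2, Prkab1, Prkab2 and the filled circle of Foxo1 lie past the 2-fold line on the left, with 1 open circle each of Pik3cd and Rps6kb1, and no symbol lies past the one on the right.

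The probes of a gene were the second source of spread. Of the 38 genes, 26 had 1 probe and 12 had several, and 9 had 2 or more that both arrays detected. In 5 of these 9 (Insr, Pik3cd, Pdpk1, Rps6kb1 and Foxo1) the probes were more than 2-fold apart, against 35.4% of 3245 genes with several measured probes. That share grows with the number of probes, from 31.8% of genes with 2 to 53% with 3 and 60% with 4. In 6 of the 9 (Insr, Pik3cd, Pik3cg, Pdpk1, Rheb and Foxo1) the probes had ratios of opposite sign, as had those of 1586 of the 3245 genes. Counted by probe, 6 of 53 with a ratio or bound were at least 2-fold lower (11.3%), against 10.9% of 19839 probes of named genes, and 0 of 53 were higher, against 11.9%. The 3 lowest of the 35 genes that both arrays detected, Pik3r2, Prkab1 and Prkab2, have 1 probe each, so the arrays hold no second reading of them.

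**Figure D3:**
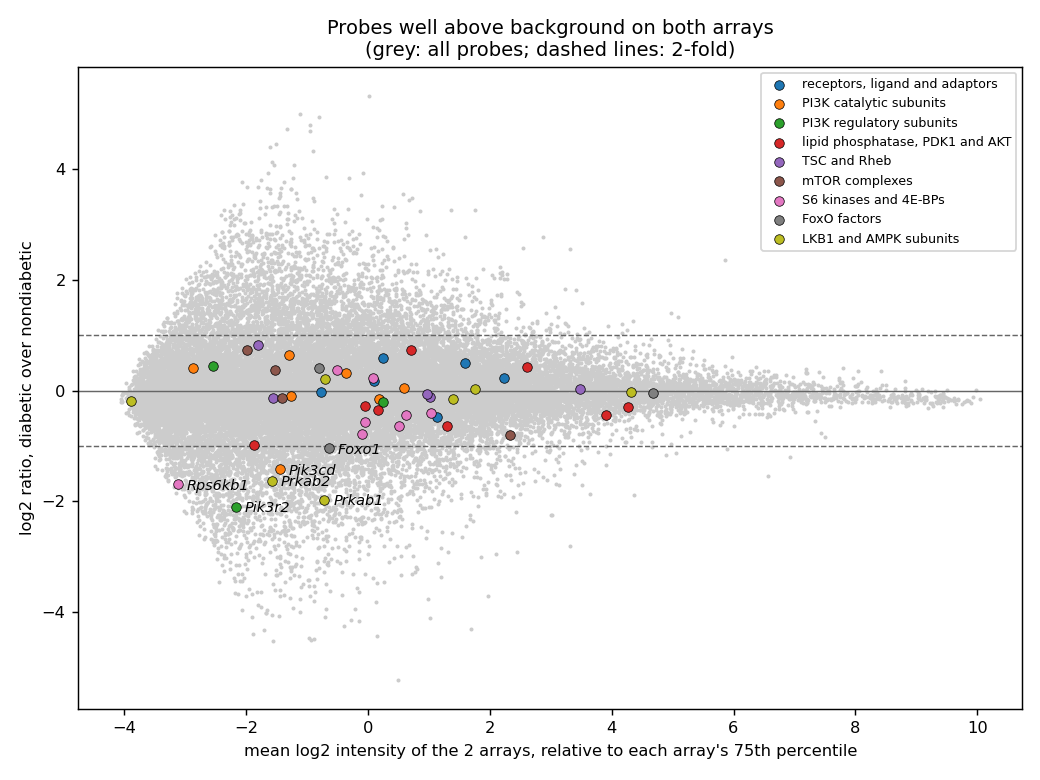
Log2 ratio (y axis) against the mean log2 intensity of both arrays relative to the 75th percentile (x axis) for probes well above background on both arrays, in grey for all probes and in colour for the 51 of the pathway. The named probes past 2-fold, all below the lower dashed line, sit in the left part of the plot among dim and middling probes, where the grey cloud is wide.

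A pair of further lists gave the surroundings of these genes, 77 pathway partners and 27 genes known as FoxO targets, 97 of which had a ratio or bound. Among these 97, 15 passed 2-fold upwards (15.5%) and 11 downwards (11.3%), against 11% and 10.1% of all genes, with a median of -0.01. Nprl2, a subunit of the complex that turns off the Rag GTPases when amino acids are scarce, had 24.6 and 240, a log2 ratio of 3.17. Its fellow subunits Nprl3 and Depdc5 gave -0.06 and -0.18. Rragd, one of the Rag GTPases that bring mTOR complex 1 to the lysosome, had 25.3 and 135.9, a log2 ratio of 2.31, while Rraga, Rragb and Rragc gave -0.02, -0.27 and 0.05. Single members of both complexes were thus high in diabetic cells while the others stayed under 2-fold. Strada, the pseudokinase that activates LKB1, had 132 and 11.4, a log2 ratio of -3.65, and its paralog Stradb gave -0.25. The value of Strada on the diabetic array was close to the background. Nprl2, Rragd and Strada each rest on 1 probe and 1 spot on each array. Cab39l, a scaffold of the same complex, gave 1.44 on its brightest probe and -0.09 and -0.18 on the others, and Cab39 gave 0.36. Camkk1, another kinase that can activate AMPK, was at least 2.35-fold higher.

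Genes that restrain insulin signalling went both ways. Ptpn1, a phosphatase that turns off the insulin receptor, had 216 and 67.0, a log2 ratio of -1.81, and its second probe was also lower. Inppl1 (SHIP2), a lipid phosphatase related to SHIP1, had a log2 ratio of -1.47. Phlpp1, a phosphatase of AKT, gave 1.56 and Trib3, an inhibitor of AKT, 1.23. Sos1, which links receptors to Ras, gave -2.21. Among extracellular partners, Igfbp7 gave 1.15, while Igf2 was at least 2.31-fold lower and Igfbp5 at least 3.01-fold higher. Of the genes for autophagy and the lysosome, Ulk2 gave 1.58 and Pik3c3 1.09 on their brightest probes, while Tfeb gave -1.72. The second probes of Ulk2 and Pik3c3 were also higher, by a bound of 1.57 for Ulk2 and at 2.57 for Pik3c3. Tbc1d7, the third subunit of the TSC complex, was at least 2.36-fold higher.

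The FoxO targets held 4 genes higher and 4 lower among the 25 with a ratio or bound. That is 16% each way, against 11% higher and 10.1% lower of all genes. Bcl2l11 (Bim) and Bbc3 (Puma), which promote apoptosis, had log2 ratios of -2.60 and -2.35, but the second probe of Bcl2l11 gave 1.08. Bnip3, which acts in mitophagy, had -1.70 and -1.64 on its measured probes, and Ccnd1 (cyclin D1), which FoxO factors repress, -1.53. Cdkn1b (p27), an inhibitor of the cell cycle, had 402 and 889, a log2 ratio of 1.03, and Ccng2 (cyclin G2) 1.14. Il7r gave 1.06 and Sirt1 1.89. The antioxidant targets Cat and Sod2 gave -0.12 and -0.36.

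**Figure D4:**
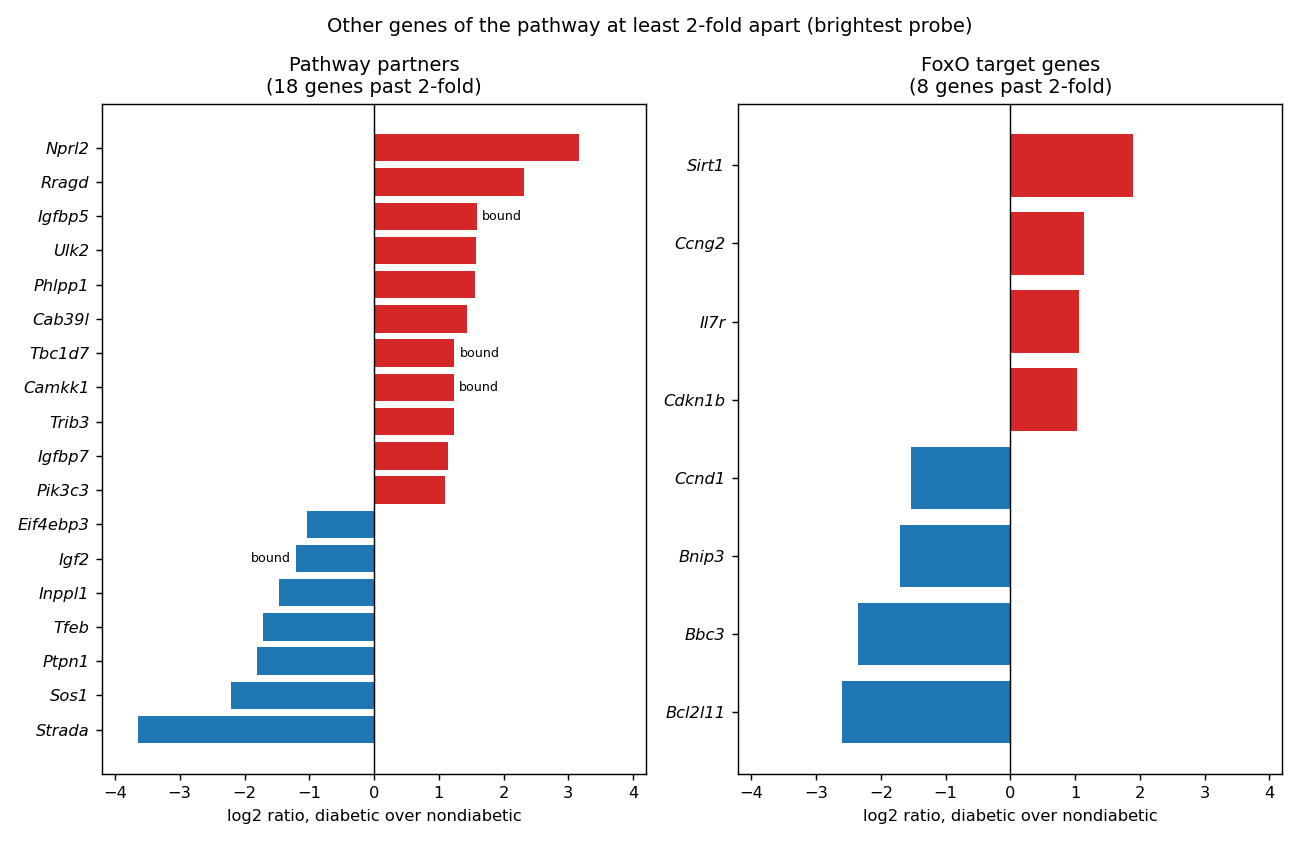
Log2 ratio (diabetic over nondiabetic) by brightest probe of the 18 pathway partners (left) and 8 FoxO targets (right) that were at least 2-fold apart between the arrays, with bars from 0 and the word bound where 1 array was not well above background. Nprl2 and Rragd are highest and Strada is lowest among partners, and in the FoxO targets 4 bars point each way.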

How the data were processed

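Gene expression in LSK cells was measured on 1-colour Agilent arrays, 1 for nondiabetic and 1 for diabetic mice, in RNA of 3 mice each. The authors deposited scanner output of Agilent Feature Extraction 11.5.1.1, whose intensity values are background-corrected within each array and not normalized between arrays. The flags deposited with them are other values of 0 or 1 from the same software. A second deposited table holds processed intensity from the authors, which equals the scanner value times 1 constant per array (log2 factors of 3.48 and 3.35). What that scaling is meant for is not given in the sources used here.

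The log2 of each intensity was centred on the 75th percentile of its array. Outlier spots were left out (none belonged to these genes), spots of a probe were averaged, and the brightest probe stood for its gene. Probes were named through RefSeq transcripts of GRCm38.p6, which matched 53.7% of 59305 non-control spots. Bounds used the lowest intensity well above background (10.2 and 10.1) or the dim probe's own value if higher. The fold limit was 2. No test was possible, and the number of arrays limits the precision. The genes named are all 38 with every probe, and partners past 2-fold. The Rag, Nprl3, Depdc5, Stradb, Cab39, Cat and Sod2 values were chosen after their values were seen. The members and lists were chosen with earlier results of these data known. Steps were tested on simulated data. Python 3.11.15 and limma 3.58.1 were used. Alternatives are given in the closing section.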

Additional observations from a re-analysis of the deposited data

How the results depend on the processing

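No paired analysis was possible because there is a single array per condition. For the same reason no replicate could be left out. Of the 4 genes at least 2-fold lower, the number still past it in the same direction was 4 under quantile normalization, loess, centring on the median log2 ratio, the authors' table, leaving dim probes unfiltered, keeping only what both arrays detected, and setting dim values to the lowest detected one. It was 3 with the mean over a gene's probes or the next brightest probe, and 1, Prkab1, under normexp. By the next brightest probe Foxo1 turned from -1.04 to 0.41, and by the mean over its probes it was -0.32. Over these 10 settings, Prkab1 ranged from -1.98 to -1.26, Prkab2 from -1.64 to -0.81 and Pik3r2 from -2.11 to -0.78. Many of these settings could hardly move the 4 genes. All 4 were well above background on both arrays, so the settings for dim probes left their ratios as they were. The authors' table and centring on the median shift every ratio by the same constant. Pik3r2, Prkab1 and Prkab2 have a single probe each, so the choice of probe could not change them.

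Normexp with an offset of 50, run on the median spot intensity in place of the processed one, took the genes at least 2-fold lower from 4 to 1, the probes at least 2-fold lower from 6 to 1, and the genes with probes more than 2-fold apart from 5 to 2. It took the partners from 15 higher and 11 lower to 5 and 6. Which of these changes did so was not tested. With no filter on dim probes, the genes at least 2-fold lower went from 4 to 6, as Irs1 went from its bound to -2.49 and Pik3r5, without a ratio otherwise, had -1.61. The all-gene counts of 1667 higher and 1538 lower became 597 and 497 under normexp. Signal over background limits Irs1, Foxo4, Pik3r5 and Prkaa2 most.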
